A study of Mus musculus with 15 samples.

Results

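Loss of Kat6b was set against gain of Kat6b by asking, for each gene, whether its change in knockout cells differed from its change in transgenic cells. Every one of the 15 libraries of the series entered the comparison, and every named gene with enough reads was tested, 15261 of 26263. The cells were neural stem and progenitor cells from the dorsal telencephalon of mouse embryos at embryonic day 12.5, grown as floating neurospheres in medium with EGF and FGF, and their total RNA was sequenced. On the C57BL/6 background (B6) there were 3 wild-type and 4 Kat6b knockout libraries. The other background was a cross of FVB with BALB/c mice (FVB/BALB), with 2 wild-type libraries and 6 from embryos that carried a Kat6b transgene. The submitters describe the transgene as raising Kat6b mRNA about 4.5-fold and as not viable on an inbred background. Neither the deleted part of the gene nor the promoter of the transgene is given in the sources used here. Because each arm has its own background, a difference between the arms cannot be told apart from a difference between the backgrounds.

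KAT6B is a histone acetyltransferase of the MYST family. It works in a complex with a BRPF scaffold protein, an ING reader protein and MEAF6, acetylates lysines of histone H3 and promotes transcription. Variants of human KAT6B cause developmental syndromes with intellectual disability. The comparison asks which genes moved one way on loss and the other way on gain, which moved in a single arm, and which moved the same way in both. The contrast below, called the interaction, is the log2 change on loss minus the log2 change on gain. It is positive where a gene rose more on loss than on gain.

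Some labels and libraries need to be named before the results. The titles of the 6 transgenic samples call them knockouts, and the count columns of transgenic replicates 5 and 6 are headed as wild types. The genotype field calls all 6 transgenic and was followed. On the first principal component of log2 CPM, the axis of largest variation (47.9% of variance), replicates 5 and 6 stood at 3.94 and 4.81. The other transgenic libraries stood at 33.8 to 52.5, wild-type FVB/BALB libraries at 50.9 and 51.4, and B6 libraries at -52.7 to -26.2. Wild-type B6 replicate 1 and wild-type FVB/BALB replicate 2 carry the same litter number and the same embryo number. Both wild-type FVB/BALB libraries and transgenic replicates 1 and 2 carry litter number 844. Transgenic replicates 3 to 6 carry 873, which has no wild-type library, so the transgene arm is partly a contrast of litters. The litter covariate used below treats number 844 on both backgrounds as 1 litter, which limits what its results mean. Several libraries were almost alike. The biological coefficient of variation was 0.0172 to 0.0358 between the wild-type B6 libraries, 0.0268 between knockout replicates 2 and 3, 0.0316 between both wild-type FVB/BALB libraries and 0.0338 to 0.0503 among transgenic replicates 1 to 3, while it was at least 0.125 in every other pair. These pairs still differed by more than counting error, with a chi-square of 2.10 to 11.4 per gene. That does not show that they are independent samples. Each library was nonetheless counted once, and the counts obtained with such libraries summed are given beside the main ones. Total counts ran from 12336303 to 62819028, with 39413502 or more in knockout libraries and at most 31067022 in wild-type B6 libraries. Nothing in the labels says whether replicates are separate cultures, so the p-values measure the spread between these libraries, which may be partly technical. Markers of neural stem cells such as Nes, Vim, Sox2 and Fabp7 were high in every library, with a summed level of 6782 to 9923 CPM, counts scaled to a common library size. Of the forebrain markers Emx2 and Lhx2 were present and Emx1 was at most 0.128 CPM. The few markers examined of blood, endothelium, fibroblasts, neural crest and pluripotent cells were each below 1 CPM in all libraries except Kdr, Col1a1 and Pdgfrb, which reached 1.82, 1.78 and 3.33 CPM. Wider gene lists gave higher sums. Their tested members summed to 29.4 to 100 CPM for endothelium, 120 to 271 for pericytes and mesenchyme, and 163 to 330 for neural crest and Schwann cells.

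Kat6b itself (gene identifier 54169, chr14:21499216-21672478, GRCm38) was measured at 85.1, 84.1 and 83.5 CPM in wild-type B6 and at 60.9, 64.1, 66.0 and 62.3 CPM in knockout libraries. It stood at 54.4 and 51.8 CPM in wild-type FVB/BALB libraries, and the transgenic libraries ran from 140 to 289 CPM with a median of 266. The groups did not overlap in either arm, and transgenic replicate 5 was the lowest of its group. The transcript was 4.57-fold higher in transgenic than in wild-type cells (log2 change 2.19 ± 0.21 SE, adjusted p = 2.38e-04). In the knockout arm the log2 change was -0.41 ± 0.17, which did not pass the threshold (adjusted p = 0.0571). Whole-gene counts do not show whether the remaining transcript can make protein. The interaction was -2.60 ± 0.26 (adjusted p = 6.07e-05). An exact two-sided permutation test over the samples (980 assignments within backgrounds) gave p = 0.00102, the smallest value it can give, with near-identical libraries taken as independent. Kat6a, the closest paralog, showed no call in any contrast, with log2 changes of -0.15 ± 0.07 on loss and 0.04 ± 0.08 on gain.

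The interaction was called, at a Benjamini-Hochberg adjusted p under 0.05 in edgeR's quasi-likelihood test, for 5696 of 15261 genes (37.3%). It was higher in 2984 genes (19.6%) and lower in 2712 (17.8%), and it exceeded 2-fold in 816 and 829 of these. The knockout arm supplied most of it. There, 6982 genes were called (45.8%), of which 3787 were higher (24.8% of genes tested). The transgene arm had 281 (1.84%), of which 104 were higher (0.681%). Median standard errors were 0.117 and 0.127 on the log2 scale in the knockout and transgene arms. The single fit shares its spread over all groups, so these values do not compare the spread within each arm. The biological coefficient of variation reached 0.173 between knockout libraries and 0.272 between transgenic libraries. Of the genes called in the interaction, 4788 (84.1%) were called in the knockout arm and not in the transgene arm, 117 (2.05%) in the transgene arm and not in the knockout arm, and 706 (12.4%) in neither. A missed call does not show an absence of change. For 3513 of the 4788 genes (73.4%) the 95% interval of the transgene effect lay wholly within 1.5-fold of no change. For 55 of the 117 (47.0%) the same held for the knockout effect. Among the 9511 genes called neither in the interaction nor in both arms, these shares were 60.3% and 58.6%. A narrow interval is thus common and does not by itself set either class apart.

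Only 139 genes were called in both arms. Of these, 76 (0.498% of genes tested) moved in opposite directions and 63 (0.413%) moved the same way. In the opposite class 47 genes rose on loss and fell on gain, and 29 fell on loss and rose on gain. In both arms the libraries of the compared groups did not overlap in 43 of the 47 and 28 of the 29 genes, beside 8.16% of all genes tested (56.3% in the knockout arm and 16% in the transgene arm). The calls come from these same libraries, so this share follows in large part from the selection. Genes named by rank within a class also had to be free of overlap in each called arm. All 76 were called in the interaction, against 9 of the 63 that moved the same way. Effects of opposite sign add up in the interaction, so this follows from how the class was made. The plot of both effects for every gene shows the opposite genes in the lower right and upper left corners.

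**Figure D1:**
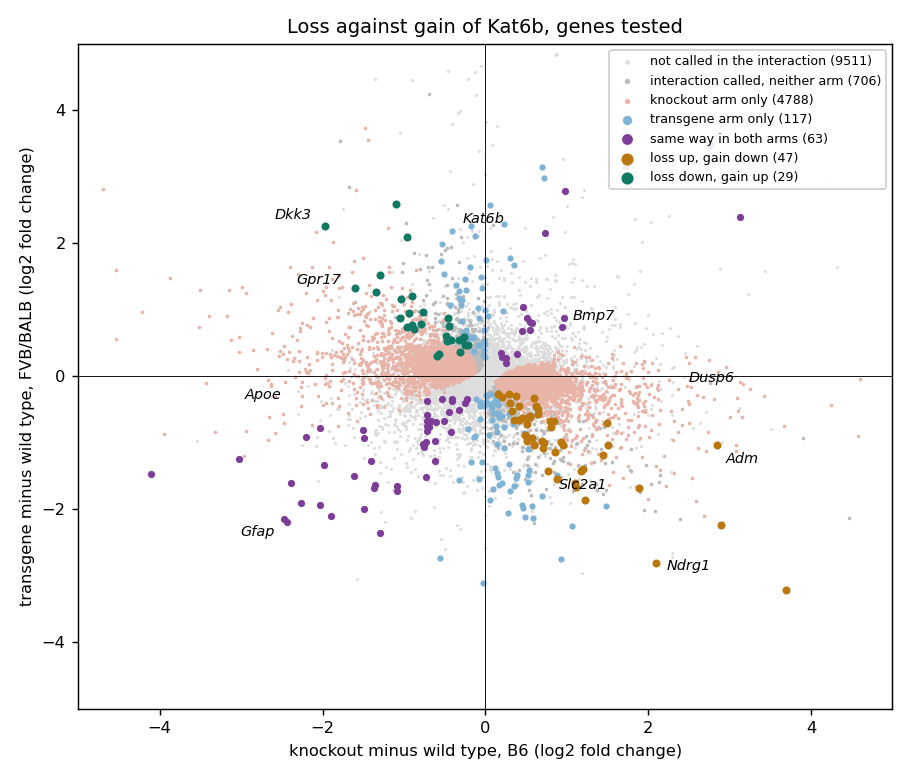
Each point is a gene, with its log2 fold change on loss of Kat6b (knockout minus wild type, B6) on the horizontal axis and on gain (transgene minus wild type, FVB/BALB) on the vertical axis; colours give the class and brackets the number of genes, and 19 genes outside 5 log2 units are not drawn. The 76 opposite genes lie in the lower right and upper left, the 63 same-way genes in the other corners, and the 4788 knockout-arm genes spread along the horizontal axis.

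How many genes fell into the opposite class depended on single libraries. Leaving out transgenic replicate 4, the shallowest library, raised the class to 866 genes, leaving out replicate 5 gave 128, and leaving out replicates 5 and 6 together gave 144. Without transgenic replicates 1, 2 or 3 in turn it held 11, 14 and 27 genes, without a wild-type B6 library 24 to 26, and without knockout replicates 2 or 3 it held 38 and 31. Without wild-type FVB/BALB replicate 1, or without replicate 2, it held 0 genes, and with litter number as a covariate it held 1. The interaction of the 76 genes is large by the choice of the class, and it was called in more settings. All 76 were called with the litter covariate, and 70 to 76 in the other settings that kept 2 or more libraries in each group. The setting with near-identical libraries summed left 1 library in each wild-type group. That setting called 0 genes in the interaction (lowest adjusted p = 0.247) and 2803 at an unadjusted p under 0.05. All 5696 called genes kept the sign of their interaction there, but summing uses the same reads, so this is no separate support.

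The starting levels of the 2 wild types were far apart in the opposite genes. In all 47 genes that rose on loss and fell on gain, the wild-type FVB/BALB level was higher than the wild-type B6 level with an adjusted p under 0.05, and in all 29 that fell on loss and rose on gain it was lower. Across all genes 48.9% were called in this difference. In 42 of the 47 genes wild-type B6 had the lowest mean of the 4 groups and wild-type FVB/BALB the highest, and in 28 of the 29 the order of these 2 groups was the reverse. The transgenic mean minus the knockout mean had a median of -0.03 log2 units over the 47 genes and 0.18 over the 29, while wild-type FVB/BALB minus wild-type B6 had medians of 1.24 and -1.21. The same wild-type libraries enter both the arms and this difference, so these values are not independent of the calls.

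Genes of glucose uptake, glycolysis and the hypoxia response were among those that rose on loss and fell on gain. Cells take up glucose through SLC2A1, regulate its breakdown through PFKFB3, and turn pyruvate into lactate with LDHA. The hypoxia-inducible factor HIF1 switches on these genes, together with a wider set of hypoxia-response genes, when oxygen is low, and it binds the core sequences ACGTG and GCGTG in their promoters. EGLN1, the oxygen sensor that marks HIF for degradation, is itself a HIF target. In the glycolysis list 18 of 22 tested genes were called higher in the interaction and 0 lower, beside 19.6% and 17.8% of all genes. Its median was 1.07, with 0.48 on loss and -0.61 on gain, against medians near 0 over all genes (0.02 on loss and 0.01 on gain). The hypoxia list without glycolysis had 18 of 23 genes higher and 3 lower, and a median interaction of 1.46, with 0.57 on loss and -0.67 on gain. Together, 14 members of the 2 lists were in the opposite class, all of them higher on loss and lower on gain.

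The promoters of 4 of these 14 genes are shown as examples whose RefSeq window ends at the annotated start of the gene. All 4 hold ACGTG, while Adm and Higd1a, which are not shown, hold GCGTG alone. They are the 250 bases before the start, 5′ to 3′ on the strand of the gene, from the RefSeq table of GRCm38.p6, with ACGTG or GCGTG on either strand in capitals. The window of Slc2a1 is chr4:119108495-119108744 (plus strand), that of Pgk1 chrX:106186850-106187099 (plus strand), that of Egln1 chr8:124949255-124949504 (minus strand) and that of Ero1l chr14:45318573-45318822 (minus strand).
Slc2a1: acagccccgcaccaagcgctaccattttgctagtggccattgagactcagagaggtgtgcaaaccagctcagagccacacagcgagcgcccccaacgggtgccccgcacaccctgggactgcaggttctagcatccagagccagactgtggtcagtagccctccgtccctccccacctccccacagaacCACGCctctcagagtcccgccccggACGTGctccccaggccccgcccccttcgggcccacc
Pgk1: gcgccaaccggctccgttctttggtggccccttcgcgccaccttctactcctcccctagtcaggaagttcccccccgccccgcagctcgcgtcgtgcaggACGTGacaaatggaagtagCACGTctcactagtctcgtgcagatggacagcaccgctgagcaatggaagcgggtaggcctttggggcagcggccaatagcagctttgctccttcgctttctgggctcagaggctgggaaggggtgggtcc
Egln1: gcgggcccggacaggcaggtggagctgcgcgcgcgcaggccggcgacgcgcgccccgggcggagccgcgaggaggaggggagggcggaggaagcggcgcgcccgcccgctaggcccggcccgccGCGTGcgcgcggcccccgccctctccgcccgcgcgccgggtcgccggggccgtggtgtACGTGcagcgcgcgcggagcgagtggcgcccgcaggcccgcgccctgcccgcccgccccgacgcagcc
Ero1l: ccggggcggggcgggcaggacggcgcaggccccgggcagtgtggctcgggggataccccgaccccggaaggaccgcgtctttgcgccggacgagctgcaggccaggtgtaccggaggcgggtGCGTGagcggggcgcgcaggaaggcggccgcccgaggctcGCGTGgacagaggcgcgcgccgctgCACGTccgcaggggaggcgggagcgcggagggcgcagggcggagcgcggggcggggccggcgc
The table held promoters for 11 of the 14 genes. ACGTG was present in 9 of the 11 (81.8%), GCGTG in 10 (90.9%) and at least 1 of them in 11 (100.0%). Over all genes tested with a promoter in the table these shares were 24.5%, 49.1% and 60.4%. ACGTG overlaps the E-box CACGTG, which was present in 27.3% and 9.63%. The other 33 genes that rose on loss and fell on gain had 24 promoters in the table, of which 20.8% held ACGTG, 54.2% GCGTG and 62.5% at least 1. Among the genes that fell on loss and rose on gain, 20 had a promoter in the table, and 20.0% of them held ACGTG, 45.0% GCGTG and 55.0% at least 1. A match is a description of these letters and not a binding site. The 14 genes were drawn from the glycolysis and hypoxia lists, and list members outside the opposite class were not examined. Whether the shares go with the class or with the lists was not tested.

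Slc2a1, the main glucose transporter of neural progenitors (gene identifier 20525), stood at 22, 21.1 and 21.0 CPM in wild-type B6 and at 44.6, 40.7, 36.6 and 24.2 CPM in knockout cells. Wild-type FVB/BALB cells had 106 and 111 CPM, and transgenic cells ran from 21.9 to 64.9 with a median of 36.8. The groups of each arm did not overlap, and knockout replicate 4 was the nearest to its wild type. Slc2a1 rose 1.71-fold on loss (adjusted p = 0.0362) and fell 2.68-fold on gain (adjusted p = 0.0243), with an interaction of 2.20 ± 0.40 (adjusted p = 9.93e-04). Pfkfb3, which makes the activator of phosphofructokinase (identifier 170768), went from 26.7 ± 2.15 CPM (SD, n = 3) to 50.8 ± 4.78 (n = 4) on loss and from 130 ± 4.73 (n = 2) to 66.3 ± 18 (n = 6) on gain, with an interaction of 1.91 ± 0.29 (adjusted p = 3.84e-04). Ldha, the lactate dehydrogenase subunit, went from 320 ± 3.53 to 574 ± 80.9 CPM on loss and from 1022 ± 4.62 to 641 ± 142 on gain. Its interaction was 1.51 ± 0.23 (adjusted p = 3.91e-04). Pgk1 and Pgam1, which catalyse consecutive steps of lower glycolysis, had interactions of 1.00 ± 0.18 and 0.84 ± 0.14.

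Over the whole glycolysis list, with the 5 opposite genes counted, 9 members were called higher and 1 lower on loss, beside 24.8% and 20.9% of all genes. On gain 8 were called lower and 0 higher, beside 1.16% and 0.681%. The member called lower on loss was Pfkm, a phosphofructokinase subunit (log2 change -0.23 ± 0.07), named here after its value was seen. In sign alone, 19 of the 22 were up on loss and down on gain and 1 the reverse. Hk2, a hexokinase that traps glucose in the cell, had log2 changes of 1.26 ± 0.30 on loss and -1.12 ± 0.29 on gain, of which the first was called. Aldoa showed the same pattern at 0.38 ± 0.09 and -0.38 ± 0.10. Pfkl, Gapdh, Pdk1 (a kinase that closes the route from pyruvate into mitochondria) and the lactate exporter Slc16a3 were called in the interaction alone, with values of 1.66, 0.73, 1.86 and 3.19.

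Adm encodes the secreted peptide adrenomedullin (identifier 11535), which dilates blood vessels. It was measured at 3.60, 2.28 and 3.09 CPM in wild-type B6 and at 19.4, 22.8, 23.5 and 19 CPM in knockout cells. Wild-type FVB/BALB cells had 54.3 and 53 CPM, and transgenic cells ran from 15.2 to 42.7 with a median of 25.8. All 4 knockout libraries were above all wild types of their background, and all 6 transgenic libraries below theirs. The log2 change was 2.84 ± 0.28 on loss and -1.03 ± 0.23 on gain, and the interaction was 3.87 ± 0.36 (adjusted p = 5.15e-05). Ero1l, an oxidase that forms disulfide bonds in the endoplasmic reticulum, had 40.1 ± 0.161 CPM in wild-type B6, 90.4 ± 27.2 in knockout, 224 ± 6.20 in wild-type FVB/BALB and 84.0 ± 35.3 in transgenic cells, with an interaction of 2.60 ± 0.47. P4ha1, a prolyl hydroxylase of collagen maturation, had an interaction of 1.51 ± 0.29, and Plod2, a lysyl hydroxylase of the same process, one of 1.57 ± 0.16.

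Egln1, the oxygen sensor, went from 126 ± 1.63 to 184 ± 30.2 CPM on loss and from 273 ± 4.28 to 179 ± 24.2 on gain, an interaction of 1.15 ± 0.18 (adjusted p = 4.87e-04). Ndrg1, a stress-response gene often used as a hypoxia marker, had 2.02, 2.12 and 2.35 CPM in wild-type B6, 14.3, 10.7, 10.4 and 2.34 in knockout, 94.2 and 93.1 in wild-type FVB/BALB and from 2.14 to 27.3 in transgenic cells. Knockout replicate 4 therefore lay within the wild-type range for Ndrg1, and its interaction was 4.90 ± 0.91. Ak4, a mitochondrial adenylate kinase, Higd1a, a small mitochondrial protein, and Bhlhe40, a transcriptional repressor, completed the opposite members of the hypoxia list, with interactions of 1.46 ± 0.20, 1.36 ± 0.24 and 1.08 ± 0.22.

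**Figure D2:**
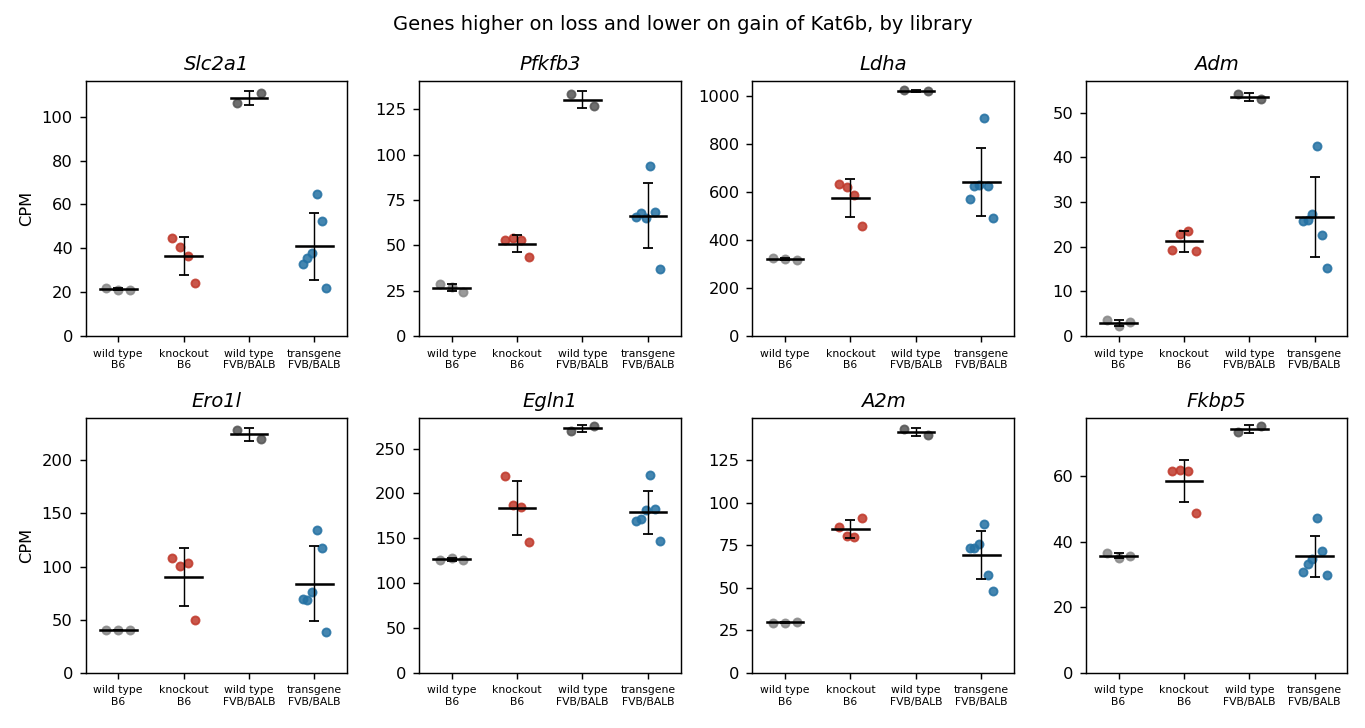
CPM (vertical axis, from 0) of 8 genes that rose on loss and fell on gain, with 1 point per library, the group mean as a horizontal line and the SD as a bar; groups are wild type B6 (n = 3), knockout B6 (n = 4), wild type FVB/BALB (n = 2) and transgene FVB/BALB (n = 6). In each panel wild-type B6 is lowest or level with the transgene group, wild-type FVB/BALB is highest, and 1 transgenic library, replicate 4, lies nearest to wild-type FVB/BALB.

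Other hypoxia genes missed a call in at least 1 arm. Vegfa, the growth factor for blood vessels, had 70.3 ± 2.06 CPM in wild-type B6, 209 ± 101 in knockout, 549 ± 11.4 in wild-type FVB/BALB and 202 ± 110 in transgenic cells. It was called in the knockout arm and the interaction (3.02 ± 0.66), while its transgene effect of -1.44 ± 0.46 was not called (adjusted p = 0.112). Bnip3, a mitophagy receptor, was called in the interaction alone (2.04 ± 0.64). Apln, which encodes the peptide apelin, rose from 7.52 ± 0.354 to 71.6 ± 17.9 CPM on loss and changed by -0.19 ± 0.22 log2 units on gain, which was not called. The 3 members with a lower interaction were Ddit4, an inhibitor of mTOR signalling (-0.85 ± 0.22), Mxi1, an antagonist of MYC (-1.11 ± 0.24), and Angptl4, a secreted inhibitor of lipoprotein lipase (-3.56 ± 0.72). All 3 fell on loss, and none was called in the transgene arm.

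The libraries within a group varied together in this response. In all 14 opposite members of both lists, knockout replicate 4 was the knockout library nearest to wild type and transgenic replicate 4 was the transgenic library nearest to wild type, and in 12 of 14 transgenic replicate 6 was the farthest. The median distance from the wild-type mean over the 14 genes was 0.23 log2 units in knockout replicate 4 and 0.75 to 0.98 in the other 3 knockouts. It was -0.37 in transgenic replicate 4, -1.11 in replicate 6 and between -0.93 and -0.83 in the others. Every library lay on its group's side of the wild-type mean in all 14 genes. The 14 genes were chosen by calls from these same libraries, so this follows in large part from the selection. Without knockout replicate 4 the glycolysis and hypoxia lists had 18 and 18 genes with a higher interaction, and without transgenic replicate 4 they had 19 and 18. With litter number as a covariate 16 and 16 were higher.

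**Figure D3:**
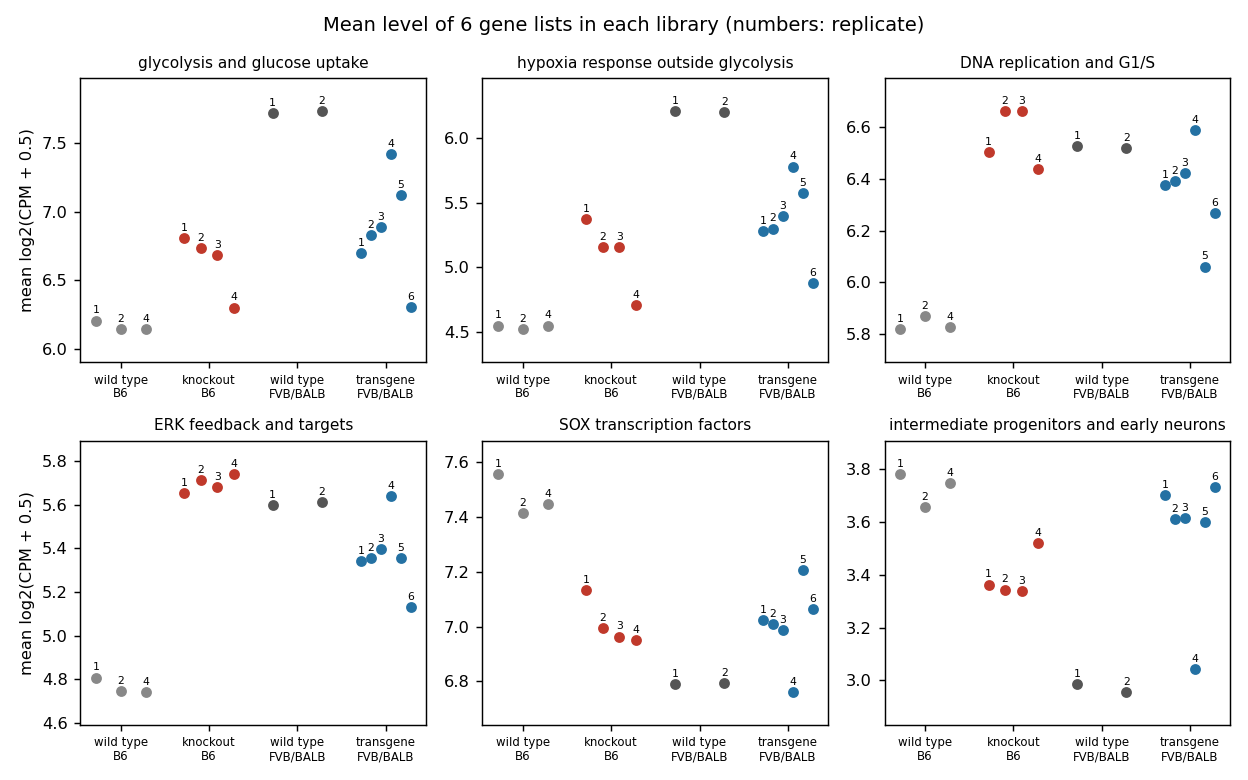
Mean log2(CPM + 0.5) of the tested genes of 6 lists (vertical axis) in each library, grouped by genotype and background on the horizontal axis, with replicate numbers above the points. Glycolysis and hypoxia genes are lowest in wild-type B6, highest in wild-type FVB/BALB and between these in knockout and transgenic libraries, and replication and ERK genes separate the B6 groups more than the FVB/BALB groups.

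The other 33 genes that rose on loss and fell on gain had varied functions. They are set apart only by not being in the glycolysis and hypoxia lists. A2m, the protease inhibitor alpha-2-macroglobulin (identifier 232345), stood at 29.3, 29.4 and 30.0 CPM in wild-type B6, at 85.8, 80.2, 79.9 and 91.2 in knockout, at 144 and 140 in wild-type FVB/BALB and from 47.9 to 87.7 in transgenic cells. It was 2.85-fold higher on loss and 2.05-fold lower on gain, with an interaction of 2.55 ± 0.21 (adjusted p = 3.52e-05). Knockout replicate 4 was the highest knockout library for A2m, unlike in the glycolysis and hypoxia genes. Kcnma1, a calcium-activated potassium channel, had an interaction of 2.77 ± 0.53, and Chl1, a neural cell adhesion molecule, one of 2.20 ± 0.24. Col4a6, a basement membrane collagen, followed with 1.99 ± 0.37. Fkbp5, a co-chaperone induced by glucocorticoids, went from 35.7 ± 0.757 to 58.5 ± 6.42 CPM on loss and from 74.5 ± 1.14 to 35.5 ± 6.31 on gain, with an interaction of 1.79 ± 0.18. Fam162a, a mitochondrial protein, had 1.66 ± 0.27. As in the opposite members of those lists, knockout replicate 4 (50.8 CPM) and transgenic replicate 4 (129 CPM) were the nearest to their wild types for Fam162a.

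Among the 29 genes that fell on loss and rose on gain were 2 members of the oligodendrocyte list, Gpr17 and Sox10. Gpr17, a receptor of committed oligodendrocyte precursors (identifier 574402), had 424, 412 and 411 CPM in wild-type B6 and 177, 111, 105 and 153 CPM in knockout cells. It stood at 74.2 and 74.5 CPM in wild-type FVB/BALB cells and ran from 83.9 to 273 with a median of 182 in transgenic cells. All transgenic libraries were above both wild types, with replicate 4 the nearest to them. Gpr17 fell 3.05-fold on loss (adjusted p = 2.73e-04) and rose 2.52-fold on gain (adjusted p = 0.0481), with an interaction of -2.94 ± 0.42 (adjusted p = 3.41e-04). Sox10, a transcription factor of the oligodendrocyte lineage, went from 67.1 ± 5.52 to 35.8 ± 3.95 CPM on loss. On gain it went from 17.4 ± 0.522 to 39.6 ± 10.4 CPM, and its interaction was -2.11 ± 0.29 (adjusted p = 2.93e-04). Tnr, which encodes the matrix glycoprotein tenascin-R and is no member of that list, had 181, 184 and 179 CPM in wild-type B6 and 74.1, 65.0, 66.4 and 79.2 CPM in knockout cells, while wild-type FVB/BALB cells had 29.2 and 28.3 CPM and transgenic cells 44.2 to 111. Its interaction was -2.62 ± 0.31 (adjusted p = 1.36e-04).

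Over the whole oligodendrocyte list 8 of 18 genes were lower and 2 higher in the interaction, beside 17.8% and 19.6% of all genes. The knockout arm had 8 of them lower and 1 higher, and the transgene arm 2 higher, Gpr17 and Sox10. The median was -0.57 on loss and 0.12 on gain. In bulk RNA, fewer cells of a type and less RNA per cell cannot be told apart.

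Dkk3, a secreted protein of the Dickkopf family (identifier 50781), had the largest interaction of the genes named in this direction. It was measured at 11.6, 11.7 and 11.4 CPM in wild-type B6, at 2.41, 3.00, 3.16 and 3.21 in knockout and at 1.58 and 1.37 in wild-type FVB/BALB cells. Transgenic cells ran from 2.14 to 10.1 with a median of 7.36, replicate 4 again being the nearest to wild type. The log2 change was -1.97 ± 0.30 on loss and 2.27 ± 0.41 on gain, and the interaction was -4.23 ± 0.51 (adjusted p = 1.43e-04). Col9a1, a fibril-associated collagen, had an interaction of -3.06 ± 0.59, and Inava, an adaptor protein of innate signalling, -2.20 ± 0.34. The mechanosensitive channel Piezo2 and Gstm7, a glutathione transferase, followed at -1.94 ± 0.28 and -1.88 ± 0.26. Cth, which makes cysteine, and Dnm3, a dynamin of membrane fission, had -1.74 ± 0.30 and -1.71 ± 0.21.

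**Figure D4:**
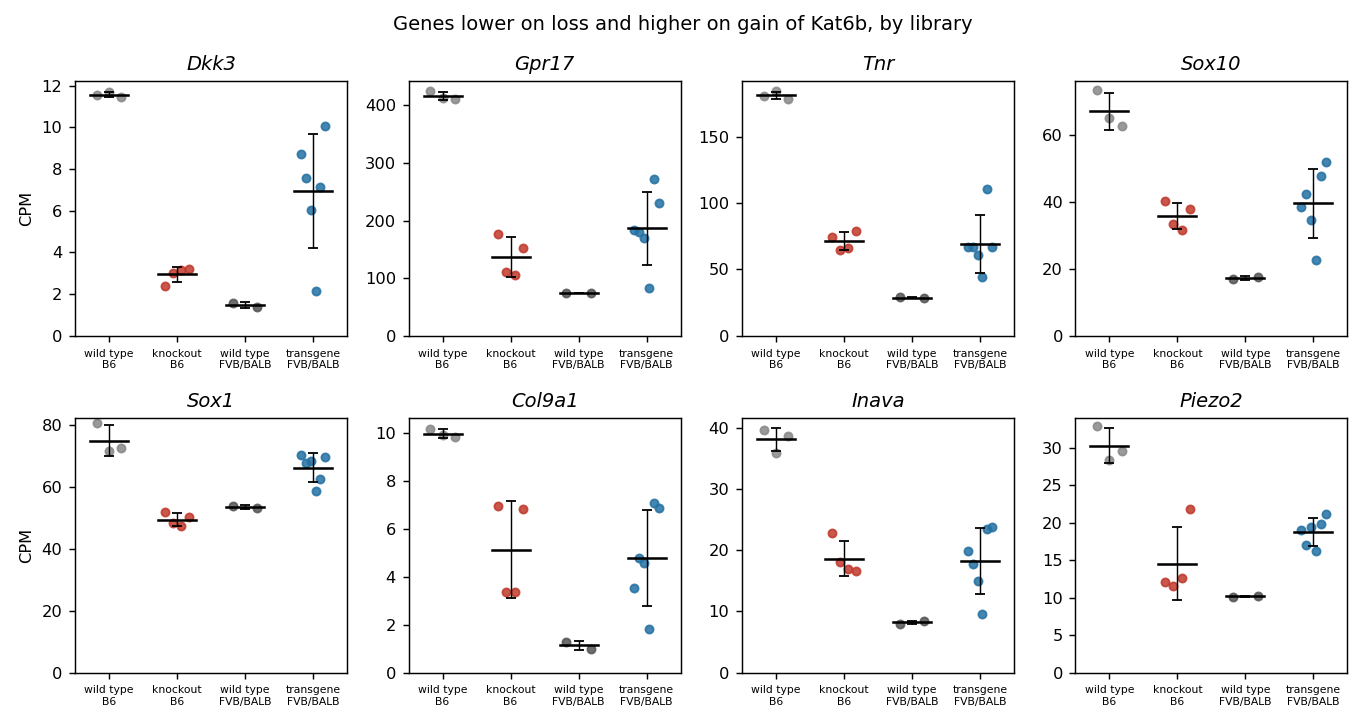
CPM (vertical axis, from 0) of 8 genes that fell on loss and rose on gain, with 1 point per library, the group mean as a horizontal line and the SD as a bar; groups are wild type B6 (n = 3), knockout B6 (n = 4), wild type FVB/BALB (n = 2) and transgene FVB/BALB (n = 6). In each panel wild-type B6 is highest, and the transgenic libraries lie above both wild-type FVB/BALB libraries.

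The SOX family of transcription factors, which maintains neural progenitors and directs their lineage choices, was lower in the interaction in 9 of 13 genes and higher in 1, Sox11 (0.62 ± 0.22), beside 17.8% and 19.6% of all genes. Sox1, a marker of neuroepithelium (identifier 20664), had 80.8, 71.8 and 72.7 CPM in wild-type B6 and 51.8, 48.3, 47.5 and 50.5 in knockout cells. Wild-type FVB/BALB cells had 54.0 and 53.1 CPM and transgenic cells 58.6 to 70.3, so that neither arm overlapped. The log2 change was -0.60 ± 0.07 on loss and 0.31 ± 0.07 on gain, with an interaction of -0.91 ± 0.10 (adjusted p = 9.91e-05), and Sox1 and Sox10 were the 2 members in the opposite class. Sox2, a factor of stem cell maintenance, fell from 694 ± 17.2 to 473 ± 39.5 CPM on loss, and its change of 0.30 ± 0.17 on gain was not called. Sox4 fell by 1.34 log2 units on loss and Sox21 by 0.97, with interactions of -1.60 ± 0.31 and -1.60 ± 0.24. Over the list the median was -0.49 on loss and 0.17 on gain.

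Genes of intermediate progenitors and early neurons had 9 of 17 members lower in the interaction and 0 higher, beside 17.8% and 19.6% of all genes. Dcx, a microtubule protein of migrating neurons, had 36.9, 38.4 and 40.3 CPM in wild-type B6, 15.1, 10.2, 10.6 and 19.8 in knockout, and 11.9 in each wild-type FVB/BALB library. Its transgenic libraries ran from 11.8 to 34.5 with a median of 31.0, and replicate 4 was the one at wild-type level. Dcx was called on loss (-1.47 ± 0.27) and in the interaction (-2.73 ± 0.43, adjusted p = 4.90e-04), but not on gain (1.26 ± 0.33, adjusted p = 0.0635). Tubb3, the neuronal tubulin, had the same calls, with -1.51 ± 0.22 on loss, 1.05 ± 0.28 on gain and an interaction of -2.56 ± 0.36. The summed level of the neuronal markers Dcx, Tubb3 and Stmn2 was 63.4 to 64.5 CPM in wild-type B6, 18.5 to 29.8 in knockout, 17.5 to 18.2 in wild-type FVB/BALB and 19.2 to 47.9 in transgenic cells, and Stmn2 was below 1 CPM in all libraries. The part of neuron number in the genes of the opposite class was not tested.

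Genes called in the knockout arm and not in the transgene arm made up the largest class. The rule for naming took those whose transgene effect lay within 1.5-fold of no change. Dusp6, the phosphatase that switches off ERK (identifier 67603), had 37.7, 32.6 and 37.3 CPM in wild-type B6 and 193, 171, 171 and 203 in knockout cells. Wild-type FVB/BALB cells had 146 and 145 CPM, and transgenic cells 77.0 to 142 with a median of 137. Dusp6 rose 5.15-fold on loss, its 95% interval on gain ran from -0.54 to 0.17 log2 units, and its interaction was 2.55 ± 0.23 (adjusted p = 4.33e-05). Spry4 and Spry1, feedback inhibitors of FGF receptor signalling, rose 4.09-fold and 3.87-fold on loss, with interactions of 2.16 ± 0.22 and 1.74 ± 0.20. In the list of ERK feedback genes and targets 17 of 20 were higher in the interaction and 1 lower, beside 19.6% and 17.8% of all genes. On loss 15 were higher and 1 lower, beside 24.8% and 20.9%, and on gain 0 were called, beside 1.84%. Its median was 1.08 on loss and -0.09 on gain. Myc, a growth regulator in this list, rose from 60.1 ± 2.19 to 130 ± 3.11 CPM on loss and had an interaction of 1.17 ± 0.12. Adamts1, a metalloprotease, Pmp22, a myelin protein, and Ppan, a ribosome assembly factor, completed the largest rises, with interactions of 1.73 ± 0.25, 1.68 ± 0.32 and 1.56 ± 0.20.

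Apoe, the lipid carrier of glia (identifier 11816), fell on loss alone. It had 1451, 1389 and 1383 CPM in wild-type B6, 362, 222, 226 and 302 in knockout, 1065 and 1072 in wild-type FVB/BALB and 602 to 1417 with a median of 1074 in transgenic cells. Loss lowered it 5.06-fold, the 95% interval on gain was -0.50 to 0.48 log2 units, and the interaction was -2.33 ± 0.33 (adjusted p = 3.06e-04). Cd82, a membrane tetraspanin, fell 4.89-fold on loss, Celsr1, a cadherin of planar cell polarity, 4.62-fold, and Igsf11, an adhesion molecule, 4.26-fold. Their interactions were -2.36 ± 0.29, -2.27 ± 0.33 and -1.98 ± 0.25. Apcdd1, an inhibitor of WNT signalling, and Nat8f1 had interactions of -1.94 ± 0.26 and -1.98 ± 0.29.

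DNA replication genes moved on loss without a call on gain. All 24 genes of the list were higher on loss and higher in the interaction, beside 24.8% and 19.6% of all genes. On gain 0 were called, beside 1.84% of all genes, and in sign 23 of the 24 were up on loss and down on gain. Mcm6, a subunit of the replicative helicase (identifier 17219), had 167, 174 and 172 CPM in wild-type B6, 270, 324, 323 and 283 in knockout, 240 and 230 in wild-type FVB/BALB and 185 to 244 in transgenic cells. Its log2 change was 0.81 ± 0.09 on loss and -0.15 ± 0.09 on gain. The licensing factor Cdc6 and the primase Prim1 had interactions of 1.26 ± 0.15 and 0.82 ± 0.12. Over the list the median was 0.72 on loss and -0.18 on gain, and with litter as a covariate 19 of the 24 genes were called in the interaction.

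**Figure D5:**
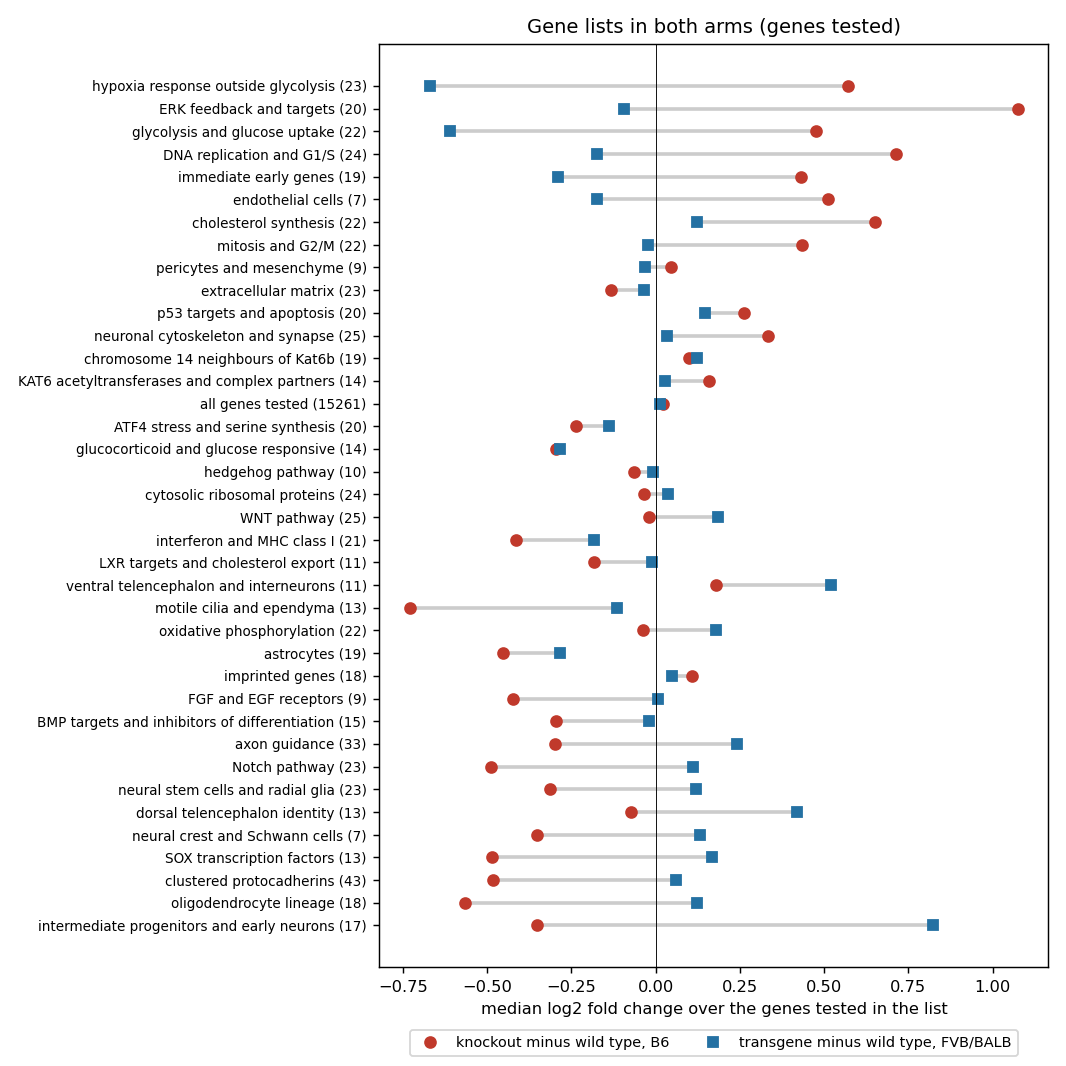
Median log2 fold change over the tested genes of each list, on loss (circles) and on gain (squares) of Kat6b, with lists ordered by their median interaction and the number of genes tested in brackets. Hypoxia and glycolysis have medians of 0.57 and 0.48 on loss and -0.67 and -0.61 on gain, whereas ERK and replication genes have medians of 1.08 and 0.72 on loss and values nearer to 0 on gain.

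Genes that moved in the transgene arm alone were few. H2-T22, an MHC class I gene (identifier 15039), had 17.1, 16.6 and 17.9 CPM in wild-type B6, 16.2, 16.6, 15.5 and 14.7 in knockout, 2.61 and 3.19 in wild-type FVB/BALB and 6.96 to 18.5 in transgenic cells. It was 4.30-fold higher on gain (adjusted p = 0.00412), and the 95% interval on loss was -0.56 to 0.31 log2 units. Reads of MHC class I genes can be split between near-identical copies, so this level is uncertain. Sfrp2, a secreted WNT antagonist, rose 2.00-fold on gain from 13.7 ± 0.718 to 27.3 ± 5.55 CPM and stood at 25.4 ± 1.05 and 25.3 ± 1.74 CPM in wild-type B6 and knockout cells. Glo1, which detoxifies methylglyoxal, rose 1.84-fold from 116 ± 0.463 to 213 ± 46.4 CPM, and Lmcd1, a transcription cofactor, rose 2.52-fold. Falls on gain were found in Rps28, a ribosomal protein gene with many copies (2.45-fold), the kinase Pim2 (1.69-fold), the copper transporter Atp7b (1.78-fold) and Tpd52, a vesicle traffic protein (1.68-fold).

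H2-T22, Glo1 and Rps28 lie on chromosome 17. Of 277 genes called in the transgene arm and placed on the assembly, 28 (10.1%) were on chromosome 17, which holds 5.08% of the tested genes that were placed. In the stretch from 26 to 38 Mb, chosen after the values were seen and including the MHC, 23 of 250 tested genes (9.2%) were called on gain, beside 1.84% of all genes. The part of this stretch in the calls on gain was not tested.

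Genes that moved the same way on loss and on gain included markers of astrocytes. Gfap, the intermediate filament of astrocytes (identifier 14580), had 19.7, 19.2 and 21.1 CPM in wild-type B6, 1.81, 2.86, 2.54 and 7.15 in knockout, 158 and 159 in wild-type FVB/BALB and 7.86 to 71.1 with a median of 27.3 in transgenic cells. It fell 5.40-fold on loss and 4.54-fold on gain, and its interaction of -0.25 ± 0.80 was not called, with a 95% interval from -1.95 to 1.45. Aqp4, the water channel of astrocytes, fell 2.82-fold on loss and 1.90-fold on gain, and its interaction of -0.57 ± 0.21 was called (adjusted p = 0.0451). Padi2, a peptidyl arginine deiminase, and Mfap4, a matrix protein, fell in both arms with interactions that were not called (-0.78 ± 0.52 and -0.13 ± 0.31). Emp1 and Fbxo2 fell in both arms as well, and both fell more on loss (-1.29 ± 0.23 and -0.70 ± 0.25). In the astrocyte list 12 of 19 genes fell on loss and 6 on gain, with 5 in both arms. Of all genes tested 20.9% fell on loss and 1.16% on gain.

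Among the 18 genes that rose in both arms, Bmp7, a bone morphogenetic protein (identifier 12162), had 53.2, 49.6 and 49.9 CPM in wild-type B6, 91.8, 97.4, 90.9 and 109 in knockout, 31.8 and 31.5 in wild-type FVB/BALB and 44.7 to 59.4 in transgenic cells. It rose 1.91-fold on loss and 1.68-fold on gain, and the 95% interval of its interaction was -0.12 to 0.50. Adamts10, a metalloprotease of microfibrils, rose 1.96-fold and 1.83-fold, with an interaction of 0.09 ± 0.11. The WNT receptor Ror2, the tubulin gene Tuba1c and Hspa1l, a heat shock gene close to near-identical copies, had interactions of -0.27 ± 0.18, -0.15 ± 0.19 and -0.58 ± 0.25 and were not called. Stambpl1, a deubiquitinase, rose more on gain (2.16 ± 0.27) than on loss (0.73 ± 0.19), and its interaction of -1.43 ± 0.33 was called. As in the opposite class, the wild types differed in most of these genes. The wild-type FVB/BALB level was called lower in 12 of the 18 genes that rose and higher in 32 of the 45 that fell. Across all genes 48.9% were called in this difference, in either direction. The wild-type libraries also enter both arms, so these counts are not independent of the calls.

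The KAT6 list holds 14 genes for KAT6 enzymes, complex members and related genes. Jade3 is in this list but is not one of the KAT6B complex partners named above. In the interaction 5 of the 14 were called, 35.7% of the list beside 37.3% of all genes. On loss 7 were called higher and 1 lower, beside 24.8% and 20.9% of all genes. The genes called in the interaction were Kat6b and 4 others. These 4 were Ing5, a reader subunit (1.21 ± 0.18), Jade3 (1.03 ± 0.21), the scaffold Brpf1 (0.31 ± 0.09) and Ing4 (-0.66 ± 0.19). All 4 were called on loss and not on gain, while Kat6b was not called on loss. Ing5 went from 13.2 ± 0.612 to 27.7 ± 0.590 CPM on loss. On gain Kat6b was the 1 member called.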

How the data were processed

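The authors deposited 1 table of read counts per gene for the 15 libraries. Per the submitters' processing notes the tools were bcl2fastq and featureCounts and the build was mm10. The sources used here do not give the aligner, versions, annotation or strandedness, so overlapping and antisense genes cannot be separated. Samples were grouped by genotype field and background. The 917 entries without a gene name, 0.450 to 0.545% of counts, were left out.

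The counts as deposited were fitted once over all libraries with edgeR 4.0.16 in R 4.3.3 (TMM scaling, filterByExpr with a minimum count of 10, quasi-likelihood F-test, 1 mean per group). P-values were adjusted by the Benjamini-Hochberg method over 15261 genes, and 0.05 was the threshold. Standard errors are the log2 change divided by the square root of F. Levels are TMM-scaled CPM, and list means use log2(CPM + 0.5). The opposite and same-way classes need a call in both arms. The single-arm classes need a call in the interaction and in 1 arm. Named genes had a mean of at least 5 CPM and groups that did not overlap in each called arm, ranked by interaction within each class (in the same-way class by the smaller of both effects). The genes with the lowest adjusted p of 10 lists and members of the KAT6, glycolysis, hypoxia and SOX lists were named as well. The members and lists were chosen with earlier results of these data known. The code was tested on simulated data. Alternatives were DESeq2 1.42.0, other scalings, no low-count filter, a litter covariate, a replicate block, litters with both genotypes, thinned counts, summed near-identical libraries, transgenic replicates 5 and 6 left out, an unadjusted and a 1.5-fold threshold, and each library left out in turn. Coordinates and promoters came from RefSeq (GRCm38.p6).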

Additional observations from a re-analysis of the deposited data

Results flagged for a closer look

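Among 102 named genes, each examined in the knockout and the transgenic group (204 groups of values), 33 groups (16.2%) held a library far from the others by Dixon's test. Chance flags about 1 in 20 groups. These genes are not independent, since the same library often stood apart.

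Knockout replicate 4 was the lowest of its group for Pfkfb3 (43.7 CPM), Hk2 (27.9), Ero1l (49.9) and Fkbp5 (48.9) and the highest for Piezo2 (21.8) and Epha3 (3.36). Pfkfb3, Ero1l, Fkbp5 and Piezo2 were genes of the opposite class, and in each of the 6 this library lay nearer to wild-type B6 than the other knockouts. Knockout replicate 1 was the highest for the mTOR inhibitor Ddit4 (165) and the lowest for Pmp22 (12.5), Ppan (50.2) and Dhh (7.69).

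Transgenic replicate 4 was the highest of its group for the glycolytic genes Ldha (909) and Aldoa (807), for Ppan (66.7) and for the licensing factor Cdc6 (40.3). It was the lowest for Dnm3 (11.6), Dcx (11.8), Epha4 (17.1) and Adamts10 (18.7).

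Transgenic replicate 5, which has the lowest Kat6b of its group, was the highest for Ddit4 (332), Tnr (111), Sox4 (636), Celsr1 (88.5), Igsf11 (82.6), Tpd52 (35.8), Stambpl1 (14.1) and Fbxo2 (16.4). It was the lowest for the ERK genes Dusp6 (77.0) and Spry1 (52.2), for Myc (68.7), for the cell cycle genes Prim1 (43.9) and Birc5 (80.2) and for Brpf1 (46.2). Its column header calls it a wild type. Transgenic replicate 6 was the lowest for Padi2 (1.97).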

How the results depend on the processing

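DESeq2 called 722 genes on gain, and the counts became 90 (loss up, gain down), 158 (loss down, gain up), 39 (up in both arms), 97 (down in both) and 236 (gain alone). A litter covariate left 2862 interaction calls, 1580 higher and 1282 lower, 10 calls on gain, 1 and 0 opposite genes, 3 and 2 same-way genes, 2433 genes on loss alone and 3 on gain alone. With only the litters that held both genotypes there were 1818 calls on gain, 317 and 411 opposite genes, 158 and 233 same-way genes and 526 on gain alone. Without transgenic replicates 5 and 6 these were 638, 86 and 58, 64 and 164, and 185. Thinning every library to the depth of the shallowest gave 158, 23 and 9, 10 and 27, and 69. With near-identical libraries summed, edgeR called 0 genes in the interaction (0 higher, 0 lower), on gain and in every class, and 5 on loss, while 2803, 471 and 3464 genes had an unadjusted p under 0.05 in the interaction, on gain and on loss. The Kat6b interaction was then -2.58 (adjusted p = 0.247), and the median standard error of the interaction rose from 0.172 to 0.319. An unadjusted threshold in both arms gave 422 and 646 opposite genes, 190 and 247 same-way genes and 477 on gain alone, and a 1.5-fold minimum gave 25 and 16, 7 up in both arms and 2164 on loss alone. The causes of these shifts were not tested. Leaving out 1 library at a time gave 3598 to 6761 interaction calls (1893 to 3477 higher, 1705 to 3284 lower), 5550 to 7528 on loss and 2 to 1763 on gain. The classes then held 0 to 350 (loss up, gain down), 0 to 516 (loss down, gain up), 1 to 77 (up in both), 0 to 137 (down in both), 3320 to 5125 (loss alone) and 1 to 516 genes (gain alone). The low ends came without wild-type FVB/BALB replicate 1 (on loss, without wild-type B6 replicate 2). The high ends came without transgenic replicate 4, except for genes down in both arms (transgenic replicate 5) and on loss alone (knockout replicate 1).

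A replicate block gave 5707 interaction calls, 38 genes up and 82 down in both arms. Equal replicate numbers did not pair the libraries: the correlations of their deviations ran from -0.0199 to 0.135, and 1 of 5 libraries had its best partner under its own number. Over the settings other than summing, glycolysis had 15 to 20 of 22 genes with a higher interaction, hypoxia 15 to 18 of 23, replication 19 to 24 of 24 and ERK 16 to 18 of 20. SOX factors had 5 to 11 lower and early neurons 4 to 11. The median interaction of the KAT6 list, 0.01, changed sign in 14 settings. No named gene that was called in the interaction changed sign in these settings. Of those not called, Gfap ran from -0.86 to 0.25, Adamts10 from -0.05 to 0.19 and Mfap4 from -0.42 to 0.0003. With 2 wild-type FVB/BALB libraries, the transgene arm had the fewest controls.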

Other observations

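Mitosis genes followed the replication genes in the knockout arm. Of 22 tested, 17 were higher on loss, 0 were called on gain and 15 were higher in the interaction. The shares of all genes were 24.8%, 1.84% and 19.6%. Birc5, the survivin subunit of the chromosomal passenger complex, went from 70.1 ± 1.12 CPM (SD, n = 3) to 116 ± 2.87 (n = 4) on loss, while wild-type FVB/BALB and transgenic cells had 97.9 ± 0.499 (n = 2) and 100.5 ± 10.4 (n = 6). Its interaction was 0.69 ± 0.12. The checkpoint kinase Bub1 and Foxm1, a transcription factor of mitotic genes, had interactions of 0.79 ± 0.13 and 0.57 ± 0.12. Cholesterol synthesis genes were higher on loss in 20 of 22 and on gain in 0, with 13 higher in the interaction. The shares of all genes were 24.8%, 0.681% and 19.6%. With so few genes called on gain, a count of 0 says little about either list. The sterol isomerase Ebp had an interaction of 0.76 ± 0.12.

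Genes of axon guidance were lower in the interaction in 16 of 33 and higher in 4, beside 17.8% and 19.6% of all genes. Epha4, an ephrin receptor, went from 33.1 ± 0.969 to 14.6 ± 1.17 CPM on loss and had a log2 change of 0.46 ± 0.14 on gain, which was not called (adjusted p = 0.104). The netrin receptor Unc5c and Epha3 had interactions of -1.07 ± 0.18 and -1.81 ± 0.33. In the hedgehog pathway 3 of 10 genes were higher and 3 lower, beside 19.6% and 17.8% of all genes. Cdon and Boc, both co-receptors for hedgehog ligands, went opposite ways on loss, with interactions of 1.27 ± 0.19 for Cdon and -1.14 ± 0.25 for Boc. The ligand gene Dhh had an interaction of 2.56 ± 0.55. Genes of oxidative phosphorylation had 0 of 22 higher and 4 lower, and cytosolic ribosomal proteins 1 of 24 higher and 3 lower, beside the same shares of all genes.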
